A study of Rattus norvegicus with 8 samples.

Results

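Asparagine synthetase (Asns), the transcription factor ATF4 and 8 further genes of the ATF4 stress response were followed in the livers of rats on a high-fat or a normal diet. The listed genes were Asns, Atf4, Atf3, Ddit3, Trib3, Chac1, Ppp1r15a, Sesn2, Cebpb and Ddit4, and their probes were all non-control probes that carried one of these gene names on the array. This gave 9 genes with 18 probes, of 25512 gene names and 46883 probes in all. No probe was named Sesn2, but 2 probes under the older name RGD1566319 have an accession that the RefSeq table pairs with Sesn2, and they are described apart from the 9. The list was chosen by values of the same contrast: Asns was picked for its adjusted p between the diets on these arrays. Its difference therefore describes that choice and supports nothing further.

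The study compared liver RNA from 4 samples of male Sprague Dawley rats, an outbred strain, kept for 12 weeks on a diet labelled 60% high fat with 4 samples of the same sex and strain on a normal diet, called control here. Both groups carry the label weight of 180 to 200 g, with no word on when the animals were weighed, and no genetic change or drug is labelled in either. The stated aim was to find factors that go with insulin resistance on such a diet. Whether every sample came from its own animal is not spelled out in the labels, so p-values here measure the spread between these 8 samples, which may be technical.

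Each sample was hybridised to 1 Agilent array in a single colour. Levels are given as normalized log2 intensity, the log2 of the background-subtracted spot signal minus the 75th percentile, on that array, of probes that all 8 arrays measured well above background. A level of 0 is therefore that percentile, a step of 1 is a doubling, and levels of different probes are not compared. A gene was represented by its tested probe with the highest mean, and a difference is always high-fat minus control. The share of probes well above background lay between 50.4% in control replicate 1 and 71.9% in control replicate 4, with high-fat replicate 1 at 56.3%, and correlations between arrays lay between 0.960 and 0.985. Hepatocyte markers were measured on all 8 arrays, 11 of 11 tested and none past the test (median difference -0.03). Their summed linear level was 605 to 797 in controls and 636 to 773 on the high-fat diet, so the liver label held. Of 11 markers of the exocrine pancreas, an organ with abundant Asns, the 5 genes Amy2a3, Cpa1, Prss1, Pnlip and Cela1 were too dim to be tested. The summed level of the other 6 was 0.126 to 0.323 in controls and 0.171 to 0.308 on the high-fat diet.

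The integrated stress response works through the translation factor eIF2. Kinases that sense endoplasmic reticulum stress, amino acid shortage, lack of heme or viral RNA phosphorylate eIF2, which lowers general protein synthesis and at the same time raises translation of the Atf4 mRNA. The ATF4 protein pairs with other leucine zipper factors and switches on genes for amino acid synthesis, transport and tRNA charging. In liver the response is known from amino acid deprivation and protein folding stress. Arrays measure mRNA, so neither ATF4 protein nor eIF2 phosphorylation was seen here. In whole liver RNA, fewer cells of a type and less RNA per cell cannot be told apart.

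The 4 probes on which the Asns and Atf4 results rest are shown because each gene was read by 2 probes at places with no bases in common. Each is 60 bases long. The first Asns probe lies on the minus strand of chr4:32759136-32759195 and the first Atf4 probe on the plus strand of chr7:118538840-118538899, both in the rn4 build of the array files, which give no coordinates for the second probes. Exon and UTR annotation of that build was not used here.
Asns, first probe: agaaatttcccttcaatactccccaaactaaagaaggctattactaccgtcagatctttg
Asns, second probe: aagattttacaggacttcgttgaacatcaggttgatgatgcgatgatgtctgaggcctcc
Atf4, first probe: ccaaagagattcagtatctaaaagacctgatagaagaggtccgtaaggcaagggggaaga
Atf4, second probe: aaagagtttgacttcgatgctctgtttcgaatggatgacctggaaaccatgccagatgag

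Asns, which makes asparagine from aspartate and glutamine and is a classical ATF4 target, was lower on the high-fat diet on both probes. The first probe gave levels of -1.85, -1.003, -1.12 and -2.48 in control replicates 1 to 4. High-fat replicates 1 to 4 gave -4.02, -4.97, -3.94 and -4.72. Every high-fat array lay below every control array, and the lowest control, replicate 4, was still above the highest high-fat array, replicate 3. The mean level was -1.61 ± 0.69 (SD, n = 4) in controls and -4.41 ± 0.51 (SD, n = 4) on the high-fat diet. The difference was -2.80 on the log2 scale (95% interval -3.65 to -1.95), a control level 6.97 times the high-fat level (3.85 to 12.6; adjusted p = 0.024, limma). Of all tested genes, 0.174% had a difference of at least this size in either direction. On the 2 rows of the slide, each with 2 arrays of each diet, the difference was -3.07 and -2.53.

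The second Asns probe, the sequence beginning aagattttac, gave the same order of diets. Its levels were -2.46, -1.59, -1.63 and -3.37 in controls 1 to 4. On the high-fat diet they were -5.10, -5.76, -4.74 and -5.66. Controls 2 and 3 were the highest and control 4 the lowest of the controls on both probes, and high-fat replicate 3 was the highest of its diet on both. The difference was -3.05 (-4.01 to -2.10; adjusted p = 0.026, limma), which is a control level 8.29 times that on the high-fat diet (4.28 to 16.1). Both probes were flagged well above background on all 8 arrays. Before scaling, the processed signal of the first probe was 533, 1245, 1141 and 529 units in controls against 136, 89.8, 186 and 105 on the high-fat diet. Its 2 spots differed by 1.002 log2 units in high-fat replicate 1 and by at most 0.25 in the other arrays.

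The call of Asns was lost (adjusted p of 0.055 to 0.068) when control replicate 1, 2 or 3 or high-fat replicate 2 or 4 was left out, while the difference stayed between -3.09 and -2.60 whichever array was removed. Over all probes, 17 to 150 were called after leaving out 1 array, against 286 with all 8 (0.907% of the tested probes).

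**Figure D1:**
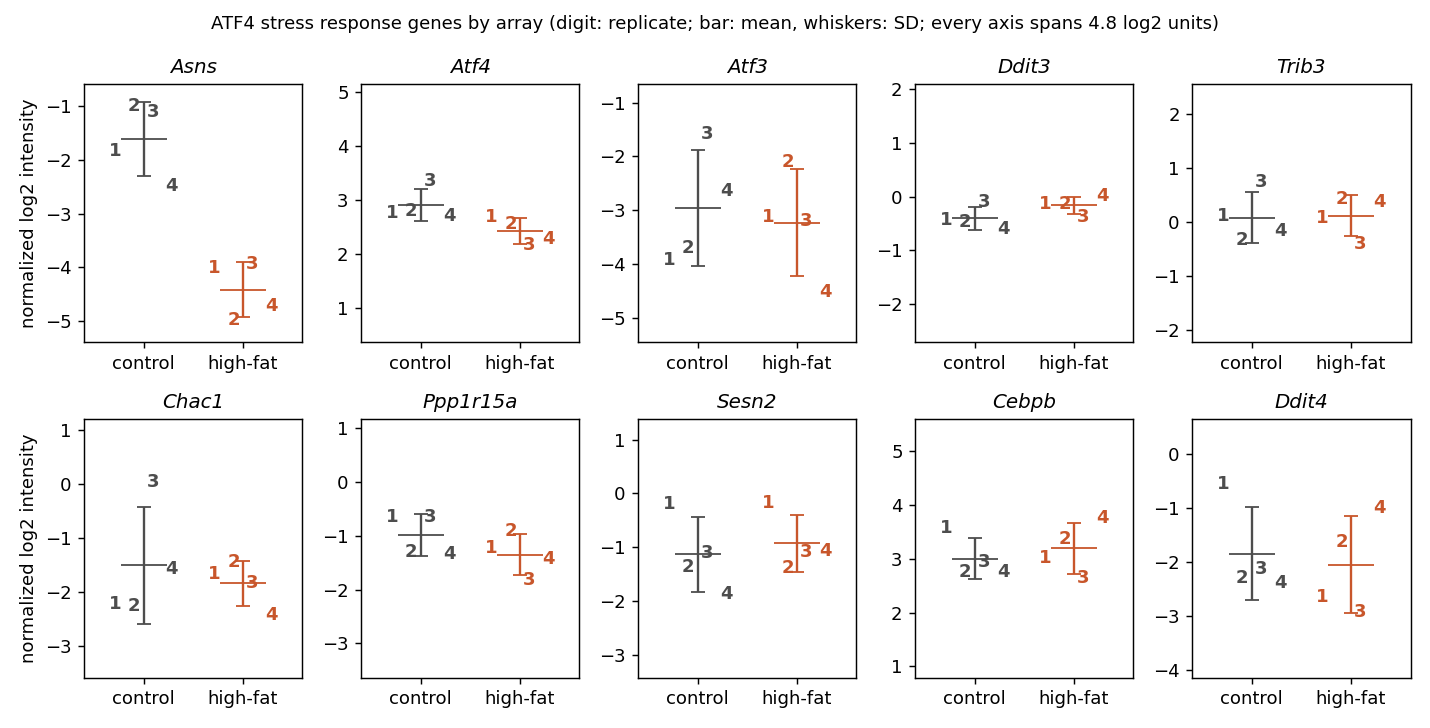
Normalized log2 intensity (vertical axis, each spanning 4.8 log2 units) of Asns, the 8 other genes found by name and Sesn2, by diet; each digit is the replicate number of 1 array, bars are means and whiskers SD, n = 4. The diets differ by -2.80 for Asns, are narrowly apart for Atf4 and overlap in the other 8 panels.

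Of the 9 genes, 1 was called lower (Asns), none higher, and 8 did not pass the test. Of all 18421 tested genes 0.874% were called, 0.527% as lower and 0.347% as higher. The median difference of the 9 was -0.28, and -0.24 without Asns, beside 0.00 for all tested genes. Without control replicate 3 the median of the 9 turned to 0.17. The median level of the 9 on each array, which is not a difference, had a within-diet spread of 0.48 (SD). Of these genes 6 had a difference below 0 and 3 above 0. Groups did not overlap for 2 of 9, Asns and Atf4, both lower on the high-fat diet, where 6.25% of all tested genes had such an order and 11.1% had no overlap in either direction.

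Atf4, the central transcription factor of the response, had levels of 2.76, 2.79, 3.35 and 2.71 in control replicates 1 to 4 on its first probe. High-fat replicates 1 to 4 gave 2.68, 2.56, 2.18 and 2.28. All high-fat arrays were below all controls, but by only a small step between control 4 and high-fat 1, and control 3 stood above the other controls. The difference of the means, 2.42 ± 0.23 against 2.90 ± 0.30 (SD, n = 4 each), was -0.48 (-0.91 to -0.05) and did not pass the test over all probes (adjusted p = 0.28, limma). Without control 3 it was -0.33. On the slide rows it was -0.16 and -0.80. The second Atf4 probe gave 0.04, 0.42, 0.65 and 0.42 in controls and 0.30, 0.08, -0.03 and -0.13 on the high-fat diet. There the diets overlapped, since control 1 lay below high-fat replicates 1 and 2, and the difference was -0.33 (-0.71 to 0.05; adjusted p = 0.40).

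Other transcription factors that act beside or below ATF4 were measured. Atf3, a stress-induced factor that ATF4 raises, gave -3.92, -3.70, -1.58 and -2.64 in controls and -3.12, -2.10, -3.20 and -4.52 on the high-fat diet. The diets overlapped widely, and both held arrays more than 2 log2 units apart. Its difference was -0.28 (-1.69 to 1.14; adjusted p = 0.88), with 1.20 on slide row 1 and -1.75 on slide row 2. It was 0.18 without control 3, 0.15 without high-fat 4 and -0.66 without high-fat 2. The second Atf3 probe, well above background on 3 control and 3 high-fat arrays, differed by 0.07. Atf3 was the only gene of the 9 whose tested probes differed in sign. Of the others, Chac1 had only 1 probe, and the second tested Ddit4 probe had almost no difference.

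Ddit3 encodes CHOP, the factor tied to cell death in prolonged stress. Its levels were -0.44, -0.47, -0.10 and -0.61 in controls and -0.13, -0.14, -0.37 and 0.00 on the high-fat diet. Control 3 lay above 3 of the high-fat arrays, so the diets overlapped, and the difference was 0.25 (-0.10 to 0.59; adjusted p = 0.50). The second probe differed by 0.03. This was the gene with the smallest spread of the 9, with a within-diet SD of 0.19, and its interval left out a rise or fall of 1 log2 unit.

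Cebpb encodes a leucine zipper partner of ATF4 that is also central to liver gene expression. It gave 3.57, 2.75, 2.95 and 2.76 in controls and 3.01, 3.37, 2.63 and 3.75 on the high-fat diet. Control 1 and high-fat replicate 4 were the highest of their diets, and the groups overlapped. The difference was 0.19 (-0.44 to 0.82; adjusted p = 0.81), and 0.11 on the other probe, which shares 57 of its 60 bases with the first and is no separate reading. It was 0.00 without high-fat 4 and 0.37 without control 1 or high-fat 3.

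The remaining genes act as feedback inhibitors, metabolic enzymes or growth regulators. Trib3, a pseudokinase that ATF4 and CHOP induce and that in turn restrains them, gave 0.11, -0.34, 0.74 and -0.17 in controls and 0.08, 0.43, -0.40 and 0.38 on the high-fat diet. Its diets overlapped with nearly equal means. The difference was 0.04 (-0.59 to 0.66; adjusted p = 0.97), and 0.15 on the other probe. By slide row it was 0.37 and -0.29. Leaving out 1 array gave 0.26 without control 3 and values below 0 without control 2 or 4 or high-fat 2 or 4, the lowest -0.10.

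Chac1, an enzyme that breaks down glutathione and is a sensitive ATF4 target, was read by 1 probe. Its levels were -2.23, -2.27, 0.04 and -1.58 in controls and -1.68, -1.45, -1.83 and -2.43 on the high-fat diet. Control 3 was higher than every other array, and the rest overlapped. The difference of -0.34 (-1.47 to 0.80; adjusted p = 0.81) became 0.18 without control 3, and was 0.69 and -1.36 on the slide rows.

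Ppp1r15a encodes GADD34, the phosphatase subunit that removes the phosphate from eIF2 and so ends the response. Its levels were -0.65, -1.30, -0.65 and -1.34 in controls and -1.23, -0.92, -1.82 and -1.43 on the high-fat diet. The highest 2 arrays were controls 1 and 3 and the lowest 2 were high-fat arrays, with overlap between. It differed by -0.36 (-0.93 to 0.20; adjusted p = 0.55), and by -0.37 on a probe that shares 58 bases with the first.

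Ddit4 encodes REDD1, which restrains the growth kinase mTORC1. It gave -0.56, -2.30, -2.14 and -2.39 in controls and -2.65, -1.64, -2.94 and -0.996 on the high-fat diet. Control 1 and high-fat 4 stood above the rest of their diets. The difference was -0.21 (-1.42 to 1.003; adjusted p = 0.90), and -0.72 and 0.30 on the slide rows. It was 0.21 without control 1, 0.08 without high-fat 3 and -0.56 without high-fat 4. A second tested probe differed by 0.00, and another was well above background on only 1 control and 2 high-fat arrays and was not tested.

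Sesn2, a stress-induced inhibitor of mTORC1 that also senses leucine, was read under its older name. Levels were -0.20, -1.36, -1.10 and -1.86 in controls and -0.18, -1.39, -1.08 and -1.07 on the high-fat diet. Replicate 1 was the highest in both diets and the groups overlapped. It differed by 0.20 (-0.66 to 1.07; adjusted p = 0.86), and by 0.25 on the other probe. Leaving out control 1 gave 0.50, and the sign turned without control 4 (-0.04) or high-fat 1 (-0.05).

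**Figure D2:**
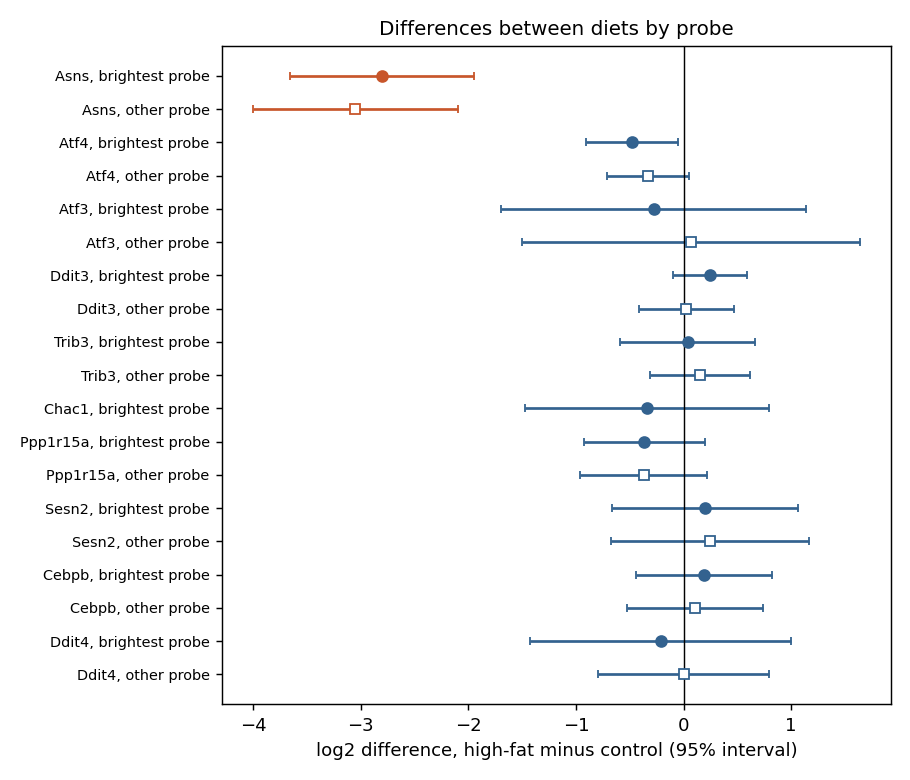
Difference between diets (horizontal axis, log2, high-fat minus control) of each tested probe of the 9 genes and Sesn2, with 95% intervals from the limma fit; filled circles are the probes that represent the gene and open squares the other tested probes. The 2 Asns probes lie at -2.80 and -3.05 with intervals that end below -1.9, the first Atf4 probe ends at -0.05, and the intervals of all others include 0.

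The genes differed in how far arrays of one diet lay from each other. The pooled within-diet SD was 1.03 for Atf3, larger than that of 95.7% of the tested genes. It was 0.88 for Ddit4, 0.82 for Chac1, 0.62 for Sesn2 and 0.61 for Asns, and 0.19 for Ddit3, against a median of 0.28 over all tested genes. Asns therefore combined a large difference with a large spread. The wide spread of Atf3, Chac1 and Ddit4 leaves their intervals more than 2 log2 units wide.

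The high arrays were shared by some of these genes. Control replicate 3 was the highest control for 5 of 9 genes (Atf4, Atf3, Ddit3, Trib3 and Chac1) and control 1 for 3 (Ppp1r15a, Cebpb and Ddit4). High-fat replicate 2 was the highest of its diet for Atf3, Trib3, Chac1 and Ppp1r15a, and replicate 4 for Ddit3, Cebpb and Ddit4. High-fat replicate 3 was the lowest of its diet for 6 of the 9, though not for Asns, where it was the highest.

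Immediate early genes, which respond to handling and injury within minutes, had a mean level of -1.65, -2.09, -1.46 and -2.13 in controls and -1.45, -1.34, -1.64 and -1.96 on the high-fat diet. Control 3 and high-fat 2, the highest of their diets in this mean, were also the highest for Atf3 and Chac1. High-fat 1 was close behind in the mean, at -1.45, and single genes differed in order. Fos and Egr1 were highest in control 3 and high-fat 1, Jun in control 1 and high-fat 2, and Junb in control 1 and high-fat 1. Of 13 tested immediate early genes none passed the test (median difference 0.27). Those with the largest differences were Egr2 at -1.32 (adjusted p = 0.069), well above background on 5 arrays, and Dusp1 at 1.27 (adjusted p = 0.29). Glucocorticoid-responsive genes, 5 tested and none past the test, had a median difference of 0.48, with Per1 at 0.88 (adjusted p = 0.64) and Fkbp5 at 0.48 (adjusted p = 0.81).

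Their mean level was -0.72, -1.04, -1.30 and -1.03 in controls and -0.95, -0.89, -0.80 and 0.16 on the high-fat diet, highest in control 1 and high-fat 4 as for Ddit4 and Cebpb. Its 5 genes did not share one pattern, and Tsc22d3 (a glucocorticoid-induced leucine zipper), Tat (tyrosine aminotransferase) and Sgk1 (a kinase of salt transport) were named after their values were seen. Tsc22d3 gave 1.76, 1.23, 0.60 and 0.61 in controls and 0.94, 1.08, 0.41 and 2.03 on the high-fat diet. Tat gave 3.41, 2.59, 2.72 and 1.92 against 2.58, 2.31, 2.50 and 3.76. Both were highest in control 1 and high-fat 4. Sgk1 went another way, with -1.46, -1.59, 0.99 and -1.37 in controls and 1.49, -1.21, -0.29 and -1.51 on the high-fat diet, highest in control 3 and high-fat 1 and lowest of its diet in high-fat 4. Fkbp5 and Per1 were highest in high-fat 4 of their diet, but in control 4 of the controls. The Per1 probe was well above background on only 2 control and 3 high-fat arrays. The part of either gene group in these values was not tested.

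**Figure D3:**
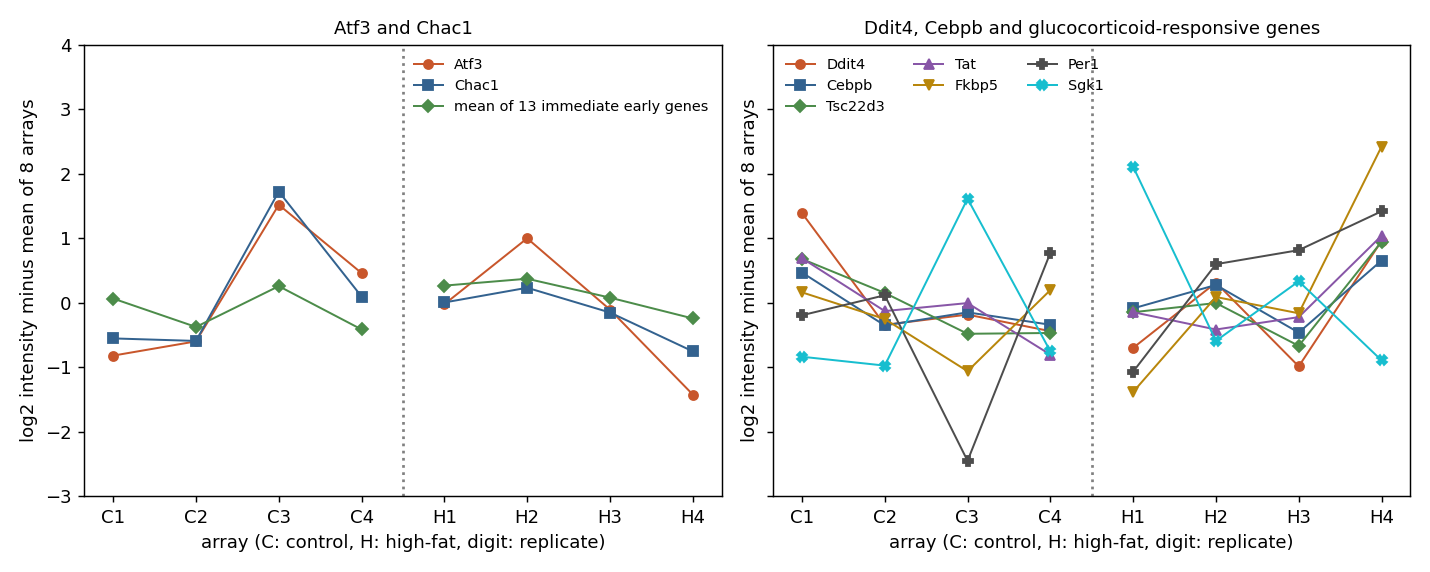
Level of each gene minus its mean over the 8 arrays (vertical axis, log2) by array (horizontal axis; C, control; H, high-fat; digit, replicate). Left, Atf3 and Chac1 with the mean of 13 immediate early genes, each led by C3 and H2, though single genes of that mean differ in order. Right, Ddit4 and Cebpb with all 5 glucocorticoid-responsive genes. There C1 and H4 lead their diets for Ddit4, Cebpb, Tsc22d3 and Tat. H4 but not C1 leads for Fkbp5 and Per1, and neither does for Sgk1.

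The wider ATF4 pathway was described by 59 further genes in 6 lists, written with earlier results of these arrays known, of which 56 could be tested. Of these, 3 were called lower, none higher, and 53 did not pass, where 0.527% of all tested genes were called lower. The median difference was -0.18, with 39 genes below 0 and 17 above, against 0.00 with 9121 below and 9300 above among all tested genes. The genes called were Phgdh, Psat1 and Slc1a5. The genes not tested were Gars1, Jdp2 and Slc7a3.

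The enzymes of serine synthesis and one-carbon metabolism had the lowest median, -0.68 over 6 genes. Phgdh, the first enzyme of serine synthesis, gave 0.92, 1.84, 1.23 and 0.83 in controls and -1.39, -2.38, -1.83 and -2.37 on the high-fat diet. Its diets were far apart, with a difference of -3.20 (adjusted p = 0.0094, limma). Its other probe differed by only -1.19 (adjusted p = 0.036), and the mean of both by -2.19. Psat1, the next enzyme of that path, gave -0.89, -1.32, -0.29 and -2.10 against -2.98, -3.84, -3.72 and -4.32. The diets did not overlap, with control 4 the nearest to the high-fat arrays as for Asns, and the difference was -2.57 (adjusted p = 0.038), and -2.33 on the other probe (adjusted p = 0.026). Mthfd2, a mitochondrial folate enzyme, differed by -1.23 without overlap and did not pass (adjusted p = 0.15).

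Among 8 tested amino acid transporters, with a median of -0.23, Slc1a5 was called. This carrier of glutamine and other neutral amino acids gave -2.37, -2.69, -2.49 and -2.72 in controls and -3.87, -4.11, -3.69 and -4.15 on the high-fat diet. On this probe the arrays of each diet lay close together and far from the other diet, and the difference was -1.39 (adjusted p = 0.016, limma). The other Slc1a5 probe overlapped between diets and did not pass, at -0.36 (-0.78 to 0.06; adjusted p = 0.40), and the mean of both probes differed by -0.87 (adjusted p = 0.047). Slc38a2, a neutral amino acid carrier induced by amino acid shortage, differed by 0.63 and did not pass (adjusted p = 0.58).

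The call of Psat1 was lost when control replicate 1, 2 or 3 or high-fat replicate 2, 3 or 4 was left out, and that of Slc1a5 without control 3 or high-fat 2. That of Phgdh was held whichever single array was left out.

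None of the 8 eIF2 kinases and regulators passed (median -0.12). Ppp1r15b, the constitutive eIF2 phosphatase subunit, gave -0.40, -0.02, -0.48 and -0.27 in controls and 0.29, 0.66, 0.34 and 0.28 on the high-fat diet. All its high-fat arrays lay above all controls, as for 4.82% of all tested genes, and the difference of 0.68 had an adjusted p of 0.084. Gcn1, which activates the amino acid sensing kinase GCN2, differed by -0.37 (adjusted p = 0.41).

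None of 6 tested partner and related transcription factors passed either (median 0.11), with Nupr1, a small stress-induced chromatin protein, at -0.63 (adjusted p = 0.32) and Atf5, a relative of ATF4, at 0.32 (adjusted p = 0.75). The tRNA charging enzymes had 12 tested genes and no call, 10 of them below 0 with a median of -0.16. The largest were Eprs1 at -0.40 (adjusted p = 0.28) and Cars1 at -0.32 (adjusted p = 0.41), which load glutamate and proline, and cysteine. Of 16 secreted and other targets none passed (median -0.22). Vldlr, a lipoprotein receptor, and Cth, which makes cysteine, each differed by -1.05 (adjusted p of 0.50 and 0.25). Fgf21, a fasting and stress hormone of the liver, close behind them, differed by -1.04 (adjusted p = 0.41). The Vldlr probe was dim, well above background on only 3 control and 2 high-fat arrays. Endoplasmic reticulum chaperones and sensors, which belong to the other arms of the folding stress response, had 17 tested genes and no call (median -0.06), with Sdf2l1 at -0.55 (adjusted p = 0.24) and Xbp1 at 0.38 (adjusted p = 0.61).

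**Figure D4:**
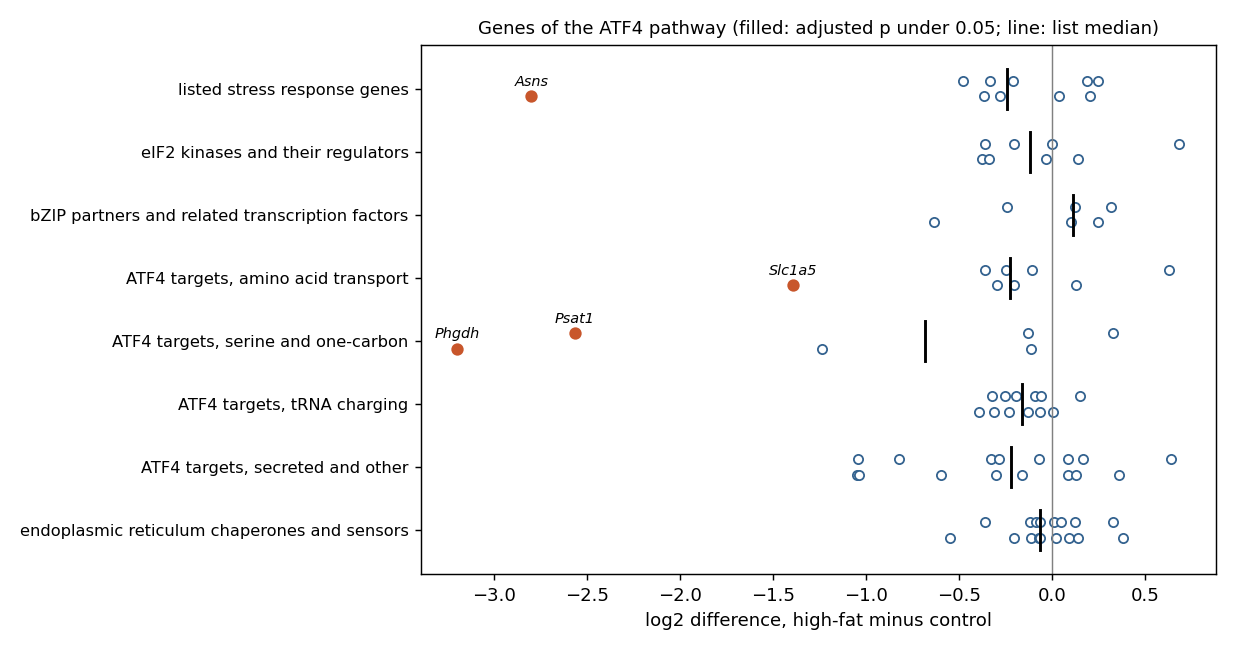
Difference between diets (horizontal axis, log2, high-fat minus control) of each tested gene in the ATF4 lists and among endoplasmic reticulum chaperones; 1 circle is 1 gene, filled where the adjusted p is under 0.05, and black lines are list medians, the top list with Sesn2. The 4 filled circles, Asns, Phgdh, Psat1 and Slc1a5, lie between -3.20 and -1.39, and the list medians lie between -0.68 and 0.11.

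Other cell types were followed in the same arrays. Of 10 tested leukocyte markers 1 was called lower, Cd3g at -1.44 (adjusted p = 0.042). Of the 10, 7 were below 0 and 3 above, with a median difference of -0.24, and 2 were lower without overlap. Their summed linear level overlapped, at 4.33 to 5.47 in controls and 3.79 to 5.54 on the high-fat diet. Their mean log2 level did not overlap. It was -3.27 to -3.16 on the high-fat diet, below every control, of which replicate 4 was the highest at -2.60. High-fat replicate 4 had no value for the marker Nkg7. Of 10 stellate and endothelial markers, Reln was called higher, and so was Lrat, which was well above background on 0 control and 4 high-fat arrays and so passed the filter only through the diet in which it was high. The sums of that list were 10.9 to 17.3 in controls and 15.7 to 19.3 on the high-fat diet. Its mean log2 level was -1.75, -2.11, -1.94 and -2.09 in controls and -1.04, -1.16, -0.998 and -0.997 on the high-fat diet. That mean did not overlap between diets, but it includes Lrat, which passed the filter only as described above. Of the 10 markers 6 were above 0 and 4 below, with a median difference of 0.24 and a largest of 7.20. Whether the mean separates the diets without Lrat was not tested. Of 5 tested erythroid markers none passed (median difference 1.05), but their sums, 23.5 to 62.3 in controls and 63.8 to 109 on the high-fat diet, did not overlap. The part of these cell types in the differences above was not tested.

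Genes were ranked by how closely their level followed that of Asns over the 8 arrays, among 14327 other tested genes with a symbol. The highest Pearson correlations, 0.98 to 0.97, were those of Wfdc21, Phgdh, Tapbp, Pspc1, Cnksr2 and Hmgn3. Slc1a5 (0.95) had rank 24 and Psat1 (0.95) rank 27, whereas Atf4 (0.75) had rank 906 and Trib3 (-0.10) rank 8077. Fasn, the fatty acid synthase and in none of the ATF4 lists, ranked above Slc1a5 and Psat1, at 16 (0.96). It differed by -2.99 between the diets (adjusted p = 0.025, limma). These values are descriptive, and all 8 points share the split by diet. Wfdc21, the first of them, gave 3.22, 3.71, 4.21 and 3.25 in controls and 1.74, 1.02, 1.70 and 1.31 on the high-fat diet.

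When each array was expressed as its deviation from its own diet's mean, which removes the diet difference, the closest genes were Tpx2 (0.96), Plin2, Panx1, R3hdm2, Cnksr2 and Hsd17b8 (0.94 each). Only Cnksr2 was in both lists. Tpx2 was dim, with levels of -7.76 to -7.10 in controls and -7.15 to -6.89 on the high-fat diet. These correlations, too, are the highest among 14327 genes and are descriptive. Phgdh had a correlation of 0.84 and rank 99 in these deviations, and Atf4 one of 0.31. Plin2, a lipid droplet coat protein, gave 1.84, 2.62, 2.32 and 1.37 in controls and 2.09, 1.46, 2.23 and 1.14 on the high-fat diet. Its order of arrays within each diet was close to that of Asns, while its difference of -0.31 did not pass (adjusted p = 0.73).

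**Figure D5:**
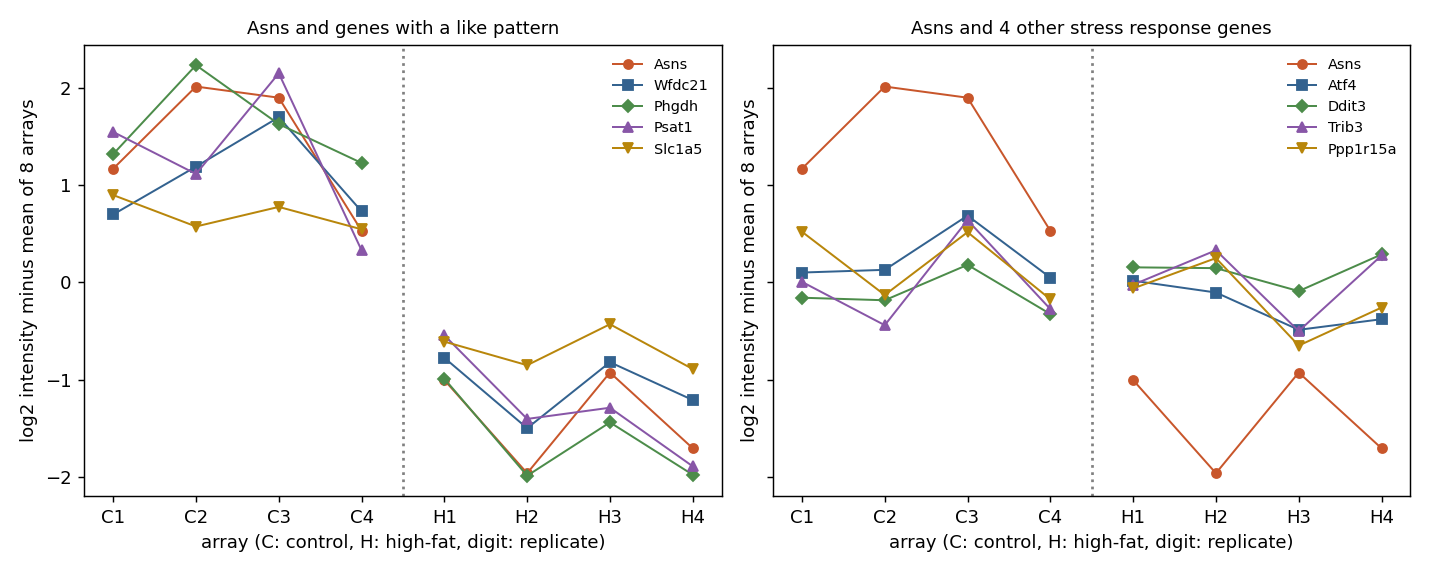
Level minus the mean over the 8 arrays (vertical axis, log2) by array (horizontal axis; C, control; H, high-fat; digit, replicate). Left, Asns with Wfdc21, Phgdh, Psat1 and Slc1a5, all above 0 in each control and below 0 in each high-fat array; right, Asns with Atf4, Ddit3, Trib3 and Ppp1r15a, which stay within 0.7 of 0 while Asns spans from 2.01 to -1.96.

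Promoters of the genes were searched for the C/EBP-ATF response element, the site type that ATF4 binds with its partners. The motif was TGATGNAAN or its reverse complement NTTNCATCA, on either strand, in the 300 bases from 250 before to 50 after the annotated start (RefSeq, GRCr8). It was present in 3.80% of 27457 rat promoters, in 15 of 49 matched genes of the wider pathway lists (30.6%), and in 2 of 9 matched among the 10 listed genes, Trib3 and Chac1. Atf3 had no match in the table. The 3 promoters shown are those of Asns, whose level differed between the diets, and of the 2 genes with the motif, whose levels overlapped, with the motif in capitals. They lie on the minus strand of chr4:36769366-36769665 (Asns), the minus strand of chr3:161275484-161275783 (Trib3) and the plus strand of chr3:126795881-126796180 (Chac1).
Asns promoter: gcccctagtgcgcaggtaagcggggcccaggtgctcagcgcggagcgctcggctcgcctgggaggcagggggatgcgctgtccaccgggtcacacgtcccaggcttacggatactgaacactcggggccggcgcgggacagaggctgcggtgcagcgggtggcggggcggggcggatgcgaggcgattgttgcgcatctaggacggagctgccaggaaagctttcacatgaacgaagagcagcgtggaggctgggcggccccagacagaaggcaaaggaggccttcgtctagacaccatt
Trib3 promoter: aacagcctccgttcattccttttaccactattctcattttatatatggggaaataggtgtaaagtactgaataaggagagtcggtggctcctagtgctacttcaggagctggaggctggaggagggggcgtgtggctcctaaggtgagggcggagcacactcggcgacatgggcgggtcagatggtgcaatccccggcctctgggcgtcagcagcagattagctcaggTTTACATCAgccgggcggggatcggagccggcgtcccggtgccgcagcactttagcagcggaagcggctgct
Chac1 promoter: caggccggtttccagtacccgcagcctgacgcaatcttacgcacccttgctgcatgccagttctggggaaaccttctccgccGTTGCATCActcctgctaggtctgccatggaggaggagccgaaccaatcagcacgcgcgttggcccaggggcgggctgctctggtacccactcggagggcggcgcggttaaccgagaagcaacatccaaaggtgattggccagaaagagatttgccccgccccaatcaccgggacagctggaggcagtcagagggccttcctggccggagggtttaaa
The motif begins 22 bases before the start in Trib3 and 168 before it in Chac1. No match in the Asns window says only that these letters are not in it. A match is a description of the sequence and not evidence that ATF4 was bound.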

How the data were processed

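Liver RNA was labelled with Cy3 from 500 ng of total RNA per sample, per the labels' protocols. The deposited scanner files hold spot intensity made with Agilent Feature Extraction 10.7.3.1, per the file headers, which subtracts background. The value table deposited by the authors gives log2 values, whose scaling is not given in the sources used here. Its columns had medians of -3.10, -3.21, -3.14 and -3.17 in controls 1 to 4 and -3.14, -3.20, -3.16 and -3.20 on the high-fat diet, and correlated with the scanner values of the same array at 0.999 or more, so it is uncentred and brighter spots have higher values. It served as an alternative.

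Control spots and outlier spots were left out, no spot was saturated, and spots of a probe were averaged. The 75th percentile used for scaling was taken over the 47.9% of probes that every array measured well above background. Probes that 4 or more arrays, whatever the diet, measured well above background were tested, 31535 in all, with limma 3.58.1 in R 4.3.3 (lmFit and eBayes, all 8 arrays, no covariates), with Benjamini-Hochberg adjustment over all of them and a threshold of 0.05. Of these probes 286 passed. Symbols came from the GRCr8 RefSeq table for 85.1% of tested probes, matched by accession, then by gene name, then by a unique synonym. The number of arrays limits the precision. The fit was tested on simulated data.

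The genes described and all lists were chosen with earlier results of these data known. Genes named are the 10 listed ones, the called genes and the 2 largest differences of each further list, and the 6 genes most like Asns by each measure. Mthfd2, Fgf21, Tsc22d3, Tat, Sgk1, Fos, Jun, Junb, Egr1 and Fasn were named outside this rule, after their values were seen. Alternatives changed the background correction, scaling, filter, variance model, weights, source of values, probe summary, blocks and arrays. All arrays lay on 1 slide, whose 2 rows each held 2 control and 2 high-fat arrays.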

Additional observations from a re-analysis of the deposited data

Results flagged for a closer look

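In 100 sets of 4 arrays, each of 1 probe in 1 diet, the highest or lowest array lay apart from the other 3 in 7, where chance gives about 1 in 20. The first Atf4 probe gave 3.35 in control replicate 3, with the other controls at 2.71 to 2.79. In the same array the second Trib3 probe gave -1.20 (other controls -1.99 to -1.87). Control replicate 1 stood apart for Ddit4, at -0.563 (others -2.39 to -2.14), and for the second Cebpb probe, at 3.53 (others 2.76 to 2.83). High-fat replicate 1 gave -2.78 on the second Sesn2 probe, against -4.69 to -4.40 in the other high-fat arrays, and it was also the highest of its diet on the first Sesn2 probe, at -0.18. For Ppp1r15b, high-fat replicate 2 gave 0.659 (others 0.28 to 0.34), still above every control. For Pspc1, control replicate 4 gave -2.60 (others -2.31 to -2.27). No Asns value stood apart in this way.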

How the results depend on the processing

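The Asns difference kept its sign under all 20 alternatives (-3.09 to -2.32, the latter with normexp) and stayed past the threshold in 12. It did not pass at -2.80 with no filter on dim probes (adjusted p = 0.077), at -2.80 with the replicate block (0.073), or at -3.03 without the 2 dimmest arrays (0.086). Leaving out 1 array in turn gave -3.09 to -2.60. The number of the 9 genes called was then 0 to 1, and it was 0 with no filter, with the replicate block and without the 2 dimmest arrays. The wider pathway lists had 3 calls, 1 with no filter, 0 with the replicate block, 0 without the 2 dimmest arrays, 1 to 3 with 1 array left out, and at most 4, where Ppp1r15b was added. Phgdh was called in 18 of the 20, Slc1a5 in 15 and Psat1 in 10. None of the other 8 genes passed under any of the 20. Their median with Asns ran from -0.47 to 0.17.

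Over all probes, 286 calls became 10 with no filter on dim probes (46883 tested), 529 among probes well above background on all 8 arrays, 532 with an intensity trend, 171 with the slide row as a block, 1 without the 2 dimmest arrays and 17 to 150 with 1 array left out. The share of calls that were higher, 41.6%, ran from 11.8% to 54.9% with 1 array left out and was 30% with no filter. Deviations of same-numbered arrays correlated at -0.12, 0.26, 0.23 and 0.01. Arrays of different numbers were not compared in this way, so whether replicate numbers pair the samples was not settled. The replicate block left 1 call over all probes. The cause of these changes was not tested. Probes well above background on fewer than 4 arrays, 1 of Ddit4 among them, entered the test only with no filter.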
